A study of Mus musculus with 8 samples.

Results

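The genes described here build and run the lysosome of muscle. They are 17 genes of the vacuolar ATPase (V-ATPase), the proton pump that acidifies the lysosome, and 26 other lysosomal genes, which encode membrane proteins, cathepsins and other hydrolases and the transcription factors Tfeb, Tfe3 and Mitf. The 43 genes were named in a list, with no measured value in the rule that chose them. The list was drawn up with earlier results of these data known. All 43 were found among 21887 protein-coding genes on 21 chromosomes. A gene was counted as bound in a library when a peak had its summit within 1000 bp of either end of its span, called a gene-end peak. A gene said to have no peak had no gene-end peak, and peaks deeper inside a gene are named as interior peaks.

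The lysosome is the acidic compartment in which proteins, glycogen, glycans and lipids are broken down. The V-ATPase couples ATP hydrolysis in its cytosolic V1 sector to proton transport through its membrane-embedded V0 sector. The MiT/TFE factors, among them Tfeb, are known to raise the expression of many lysosomal genes through an E-box, CACGTG, that often stands inside the longer element TCACGTGA. CREB1 is a transcription factor that binds the cAMP response element, TGACGTCA, or a single arm of it, TGACG, and its phosphorylated form responds to cAMP signalling. In skeletal muscle, lysosomes clear glycogen and organelles, and loss of the acid alpha-glucosidase Gaa causes the glycogen storage myopathy Pompe disease.

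Binding was measured by chromatin immunoprecipitation and sequencing (ChIP-seq) in 2 groups, with 2 phospho-CREB1 libraries in each and 4 input libraries in all. C26 mice were male Balb/c mice, injected under the skin at 2 months of age with C26 cells, a murine adenocarcinoma line of the colon that is widely used as a model of cancer cachexia. CTRL mice were the controls, for which the labels give no age, sex or strain of their own. Each library came with its own list of peaks called against an input of its group. The treatment text also describes rolipram, a phosphodiesterase inhibitor, or vehicle given to tumour-bearing mice, without saying which of them these mice received. The labels name the gastrocnemius in some places and the quadriceps in others, leave it open whether the antibody was against CREB or phospho-CREB1, and do not say that replicates came from separate animals, so the spread between replicates may be technical. Muscle holds several cell types, and the share of cells with a bound site cannot be told apart from occupancy per cell.

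The lists held 7482 and 4051 peaks in C26 replicates 1 and 2, against 10835 and 14975 peaks in CTRL replicates 1 and 2. The means were 5766 ± 2426 peaks in C26 and 12905 ± 2927 peaks in CTRL (SD, n = 2 each), with a two-sided exact permutation p of 0.33, the smallest that 2 libraries against 2 allow. C26 replicate 2 had the shortest list, so results that rest on it are also given without it. Sequencing depth is unknown, and the absence of a peak means only that the signal stayed below the authors' threshold. Of 12 skeletal muscle markers, 2 were bound in both C26 libraries and 8 in both CTRL libraries by this measure, beside 13.0% and 32.2% of all protein-coding genes. Another 3 of the 12 had no gene-end peak in any library. Of 12 macrophage markers, 0 were bound in any library, where 57.7% of all genes had no gene-end peak. Peaks do not measure expression, so they do not show which cell types the tissue held.

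Most lysosomal genes were bound in CTRL muscle, and fewer of them passed the threshold in C26 muscle. A gene-end peak was called at 26 and 13 of the 43 genes in C26 replicates 1 and 2 (60.5% and 30.2%), against 35 and 36 genes in CTRL replicates 1 and 2 (81.4% and 83.7%). Over all protein-coding genes the shares were 26.1% and 14.0% in the C26 lists and 33.9% and 40.1% in the CTRL lists. Both C26 libraries had a peak at 13 lysosomal genes, where the background was 13.0% of all genes. Both CTRL libraries had a peak at 33 lysosomal genes (76.7%, 95% Wilson interval 62.3% to 86.8%), where the background was 32.2%. The lysosomal genes were thus bound more often than the average gene in each of the 4 lists, as counts without a test.

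Of the 33 genes bound in both CTRL libraries, 12 were bound in all 4 libraries, 11 in 1 C26 library and 10 in neither C26 library. Peaks in all 4 libraries were found at 27.9% of the lysosomal genes and at 12.7% of all genes, and a lack of any gene-end peak at 4 lysosomal genes (9.3%) and 57.7% of all genes. Peaks in 1 C26 and both CTRL libraries were found at 25.6% of the lysosomal genes and at 12.0% of all genes. In each of these 11 lysosomal genes the library that lacked the peak was C26 replicate 2. This was the general pattern: of all 2632 such genes, 2484 had their C26 peak in replicate 1 and 148 in replicate 2. The pattern of no C26 peak beside both CTRL peaks applied to 23.3% of the lysosomal genes, with a background of 7.40%. Taken only over genes bound in both CTRL libraries, 36.4% of 33 lysosomal genes and 39.6% of 7037 genes were bound in all 4 libraries, and 33.3% and 37.4% were bound in 1 C26 library. The share without a C26 peak was 30.3% of the 33 lysosomal genes (Wilson interval 17.4% to 47.3%) and 23.0% of the 7037 genes. The reverse pattern, with both C26 libraries and no CTRL library bound, was seen at 0 of 43 lysosomal genes (Wilson upper bound 8.2%) and at 6 of all genes (0.0274%). Without C26 replicate 2, 23 lysosomal genes were bound in C26 replicate 1 and both CTRL libraries, and 10 were still bound in both CTRL libraries and not in C26. Without C26 replicate 1, the group without a C26 peak held 21 genes.

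**Figure D1:**
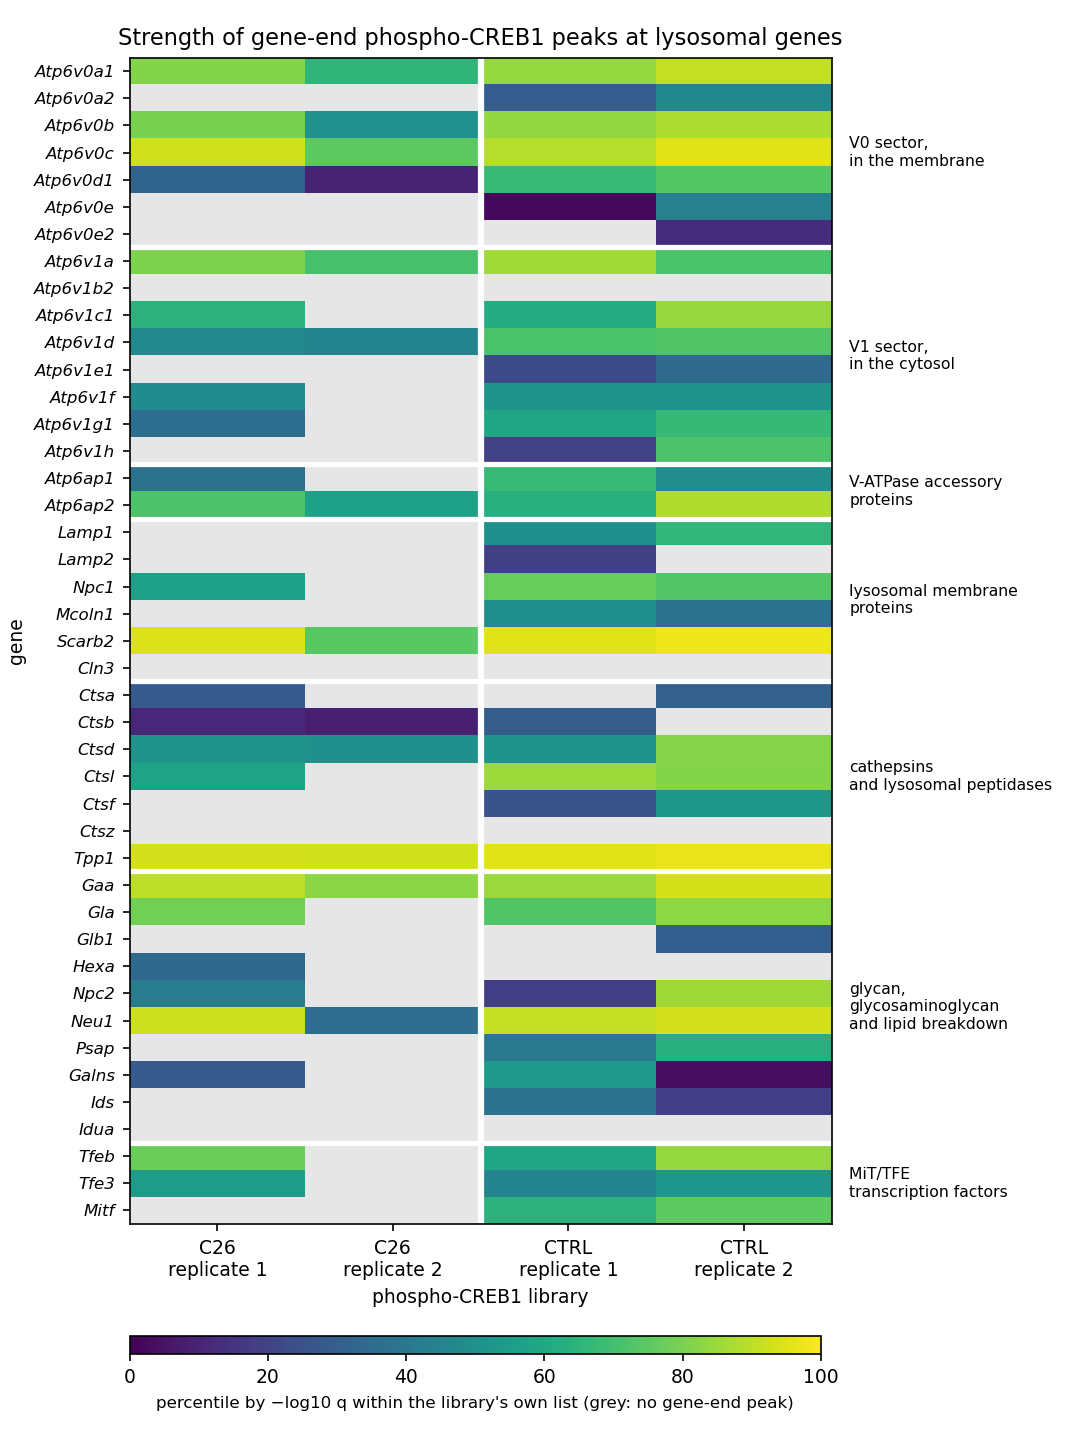
Strength of the strongest gene-end phospho-CREB1 peak at each of 43 lysosomal genes (rows, grouped by role) in the 2 C26 and the 2 CTRL libraries (columns), as the percentile by −log10 q within the library's own list, from 0 (weakest) to 100 (strongest). Grey marks no gene-end peak. Grey cells are most frequent in C26 replicate 2, where 13 genes had a peak, and least frequent in CTRL replicate 2, where 36 had one.

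The 12 genes bound in all 4 libraries were Atp6v0a1, Atp6v0b, Atp6v0c, Atp6v0d1, Atp6v1a, Atp6v1d, Atp6ap2, Scarb2, Ctsd, Tpp1, Gaa and Neu1. In all but Atp6v0a1, a listed promoter (250 bases before to 50 after a transcription start, RefSeq, GRCm38.p6) held the arm TGACG on one of the strands. The stretches below show the copy of the arm nearest the shared summits. In Atp6v0c this copy was 328 and 347 bp from the C26 summits, against 340 and 339 bp from the CTRL summits, and the C26 replicate 2 peak did not reach it. In Atp6v0d1 the C26 replicate 2 peak did not reach the stretch shown either, and its summit was 151 bp from the nearest arm. Each stretch is written 5′ to 3′ on the gene's strand, with TGACG or its reverse complement CGTCA in capitals.
Atp6v0b (chr4:117887402-117887426, minus strand): ctccgcggcaTGACGtctaccaggg
Atp6v0c (chr17:24169448-24169472, minus strand): acagatcatgTGACGcgagcgcggc
Atp6v0d1 (chr8:105566037-105566061, minus strand): agacgcggtgCGTCAccTGACGcac
Atp6v1a (chr16:44139282-44139306, minus strand): cgtgacttagCGTCActtccttagc
Atp6v1d (chr12:78861795-78861819, minus strand): gagggcgctgTGACGaatggcggaa
Atp6ap2 (chrX:12587687-12587711, plus strand): ccccaattgcTGACGtcgaccaggc
Scarb2 (chr5:92505620-92505644, minus strand): agtcgccagcCGTCAccatcaccgc
Ctsd (chr7:142387856-142387880, minus strand): gggactgcggCGTCAtcctgcctat
Tpp1 (chr7:105752264-105752288, minus strand): gagtcagcaaCGTCActagttacta
Gaa (chr11:119267876-119267900, plus strand): tgcaacgcgaTGACGtcctatggct
Neu1 (chr17:34931186-34931210, plus strand): ccgcccctttCGTCAcgttctggcg
Over these 11 genes and 4 libraries, the 44 summits lay a median of 31.5 bp from the centre of the nearest TGACG, with a range of 1 to 347 bp. Of the 44 summits, 27 were within 50 bp of it and 34 within 100 bp. The arm was searched only from 250 bases before to 50 after a start, and most summits also lay near starts. Short distances are therefore partly set by the window. No distance for other genes or motifs stands beside these values, so they do not show that summits centre on the arm. The arm ran on to TGACGTC in Atp6v0b, Atp6ap2 and Gaa, and none of the 11 held the full palindrome TGACGTCA in a listed promoter.

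In the V0 sector, which carries protons through the membrane, 4 of 7 genes were bound in all 4 libraries. Atp6v0c, which encodes the c subunit of the proton-carrying ring, had 14.3- and 9.94-fold enrichment over input in C26 replicates 1 and 2, against 16.1- and 34.6-fold in CTRL replicates 1 and 2. Its percentiles by −log10 q were 92.9 and 74.8 in the C26 lists, against 88.9 and 95.7 in the CTRL lists, so it was among the stronger peaks of each list. Folds are scaled by each library and its input and were not compared between lists. Atp6v0a1, which encodes an a subunit that anchors V0 and forms its proton path, had 7.96- and 8.55-fold enrichment in C26, against 12.3- and 19.1-fold in CTRL. Its summits lay far upstream of the start listed in the promoter table, at −980 and −905 bp in C26, against −984 and −902 bp in CTRL, and within 100 bp of the beginning of the annotated gene span. Atp6v0b, which encodes another proteolipid of the ring, had 11.1- and 7.13-fold enrichment in C26, against 14.8- and 18.6-fold in CTRL. Atp6v0d1, whose product links the ring to the central stalk, had 4.45- and 4.76-fold enrichment in C26, against 8.59- and 11.3-fold in CTRL, and its percentile in C26 replicate 2 was only 9.65. The other V0 genes had no C26 peak. Atp6v0a2, an a subunit isoform, had 4.42- and 6.85-fold enrichment in CTRL, and the small subunit gene Atp6v0e had 2.78- and 6.21-fold, with the first of these at percentile 2.15 of its list. Atp6v0e2 had a weak peak in CTRL replicate 2 alone, 4.4-fold, at the far end of the gene and not at its start.

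In the V1 sector, which hydrolyses ATP, 2 of 8 genes were bound in all 4 libraries, 3 lacked only C26 replicate 2, 2 lacked both C26 libraries and 1 had no gene-end peak. Atp6v1a, which encodes the catalytic subunit, had 10.3- and 9.27-fold enrichment in C26, against 13.4- and 8.27-fold in CTRL, with percentiles of 80.7 and 70.9 in C26, against 86.3 and 71.5 in CTRL. Atp6v1d, which encodes a subunit of the rotating shaft, had 4.58- and 6.74-fold enrichment in C26, against 8.7- and 9.07-fold in CTRL. The other V1 genes each lacked a gene-end peak in at least 1 C26 library. Atp6v1c1 had 7.0-fold enrichment in C26 replicate 1 and no peak in C26 replicate 2, against 8.31- and 15.8-fold in CTRL. Atp6v1f and Atp6v1g1 had the same pattern with 4.97- and 5.31-fold in C26 replicate 1, against 5.5- to 8.61-fold in CTRL. Atp6v1e1, a peripheral stalk subunit, had no C26 peak and 4.55- and 6.06-fold enrichment in CTRL. Atp6v1h, the regulatory H subunit, had no C26 peak and 3.77- and 11.1-fold in CTRL, at percentiles 19.3 and 72.0, so its CTRL replicates ranked it far apart. An interior peak of Atp6v1h was called in C26 replicate 1 alone, at 4.1-fold and percentile 9.45. Atp6v1b2, the B subunit isoform of most tissues, had no gene-end peak. Its nearest peaks lay inside the span, 4167 bp from an end at 4.0-fold in C26 replicate 1 and 4104 bp from the opposite end at 10.5-fold in CTRL replicate 1.

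Both accessory proteins of the pump were bound in CTRL. Atp6ap2, the prorenin receptor, had 8.82- and 7.42-fold enrichment in C26, against 7.77- and 19.6-fold in CTRL, with summits at −39 and −31 bp in C26, against −92 and −41 bp in CTRL. Atp6ap1, which assists pump assembly, was counted as bound in C26 replicate 1 only because of a 5.55-fold peak that did not lie at its start. At its own start, Atp6ap1 had no C26 peak and 9.98- and 7.34-fold enrichment in CTRL, with summits at −55 and −50 bp. Over the 17 V-ATPase genes, 7 were bound in all 4 libraries, 4 lacked C26 replicate 2, 4 lacked both C26 libraries, 1 was bound in fewer than both CTRL libraries and 1 in none. Over the 26 other lysosomal genes these counts were 5, 7, 6, 5 and 3.

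Among 6 lysosomal membrane proteins, Scarb2 had the strongest peaks. Scarb2 is the receptor LIMP-2, which carries glucocerebrosidase to the lysosome. Its peak, at chr5:92505254-92505863 in C26 replicate 1, had 21.9- and 9.76-fold enrichment in C26, against 19.9- and 60.0-fold in CTRL. The percentiles were 94.6 and 74.3 in C26, against 95.6 and 97.6 in CTRL, so C26 replicate 2 alone ranked it below 90. Npc1, which exports cholesterol from the lysosome, had 6.28-fold enrichment in C26 replicate 1 and no peak in C26 replicate 2, against 9.9- and 9.74-fold in CTRL. Lamp1, a widely used marker of lysosomes, had no C26 peak and 7.38- and 9.3-fold enrichment in CTRL, with summits at 5 and −1 bp from its start. Mcoln1, the lysosomal calcium channel mucolipin, also had no C26 peak, and 6.56- and 5.88-fold enrichment in CTRL. Those CTRL peaks lay at its far end beside Pnpla6, and at its own start only CTRL replicate 2 had a peak, 5.31-fold and 89 bp into the gene. Lamp2, needed for the fusion of autophagosomes with lysosomes, had 1 peak, 5.15-fold in CTRL replicate 1. Cln3, the gene of juvenile Batten disease, had no gene-end peak. It did have CTRL peaks of 7.41- and 4.88-fold inside its span, at −310 and −137 bp from its other listed start, and no C26 peak there.

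Of 7 cathepsins and peptidases, Tpp1 and Ctsd were bound in all 4 libraries. Tpp1, a tripeptidyl peptidase lost in a childhood form of neuronal ceroid lipofuscinosis, had the highest mean percentile of the 12 genes bound in all 4 libraries, 94.5. Its enrichment was 15.6- and 19.2-fold in C26, against 27.8- and 35.3-fold in CTRL, and its percentiles were 93.1 and 92.9 in C26, against 95.2 and 96.7 in CTRL. The summits fell at −40 and −39 bp in C26, against −34 and −38 bp in CTRL, within 6 bp of each other and 1 to 7 bp from the CGTCA shown above. At the far end of Tpp1, beside Taf10, a peak was called in neither C26 library and in both CTRL libraries, at 10.7- and 17.1-fold. Ctsd, the main aspartic protease of lysosomes, had 5.3- and 6.9-fold enrichment in C26, against 5.28- and 13.9-fold in CTRL, and its summits were the most widely spread of the 12 genes, over 238 bp. Ctsl, a cysteine protease that is raised in many kinds of muscle wasting, had 5.31-fold enrichment in C26 replicate 1 and no peak in C26 replicate 2, against 16.1- and 13.3-fold in CTRL. Its percentile was 57.9 in C26 replicate 1, against 85.4 and 81.6 in CTRL. With a mean CTRL percentile of 83.5 it was the strongest CTRL site among the lysosomal genes that lacked a peak in C26 replicate 2. Ctsf had no C26 peak and 4.78- and 6.74-fold enrichment in CTRL. Ctsb, the most studied lysosomal cysteine protease, had weak peaks of 3.76- and 4.59-fold in C26, against 4.6-fold in CTRL replicate 1 and no peak in CTRL replicate 2. Ctsa, which stabilises Neu1 and the beta-galactosidase Glb1, had 4.47-fold enrichment in C26 replicate 1 and 4.86-fold in CTRL replicate 2, with no peak in the other libraries. Ctsz had no gene-end peak, and its nearest peak in any list lay 3610 bp outside the gene.

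Of 10 genes for the breakdown of glycans, glycosaminoglycans and lipids, Gaa and Neu1 were bound in all 4 libraries. Gaa had 11.6- and 11.8-fold enrichment in C26, against 12.7- and 26.4-fold in CTRL, with percentiles of 89.9 and 82.5 in C26, against 85.0 and 93.6 in CTRL. All 4 of its peaks overlapped the start of the gene, with summits at −44 and −60 bp in C26, against 39 and −30 bp in CTRL. Neu1, the lysosomal sialidase, had 18.0- and 5.78-fold enrichment in C26, against 18.2- and 26.9-fold in CTRL. C26 replicate 2 ranked it at percentile 35.8, against 92.3 in C26 replicate 1, the widest gap between the C26 lists among the 12 genes. Gla, the alpha-galactosidase lost in Fabry disease, had 11.6-fold enrichment in C26 replicate 1 and no peak in C26 replicate 2, against 11.7- and 15.9-fold in CTRL. Npc2, a cholesterol carrier in the lysosome, and Galns, a sulfatase for keratan sulfate, also lacked only C26 replicate 2, with 4.68- and 4.47-fold in C26 replicate 1. In CTRL replicates 1 and 2, Npc2 had 3.87- and 16.8-fold enrichment and Galns 6.54- and 3.47-fold. Each had a weak CTRL peak, at percentile 18.4 in CTRL replicate 1 for Npc2 and 3.7 in CTRL replicate 2 for Galns. Psap, the precursor of the saposins that activate lipid hydrolases, had no C26 peak and 5.35- and 9.28-fold enrichment in CTRL. Ids, which removes sulfate from iduronate, had no C26 peak and 6.44- and 4.9-fold in CTRL. Its CTRL peaks lay at −20789 and −20899 bp from its listed start, at an end of the annotated span that it shares with Eola1. Hexa, the alpha subunit of hexosaminidase, was the only one of the 43 genes with its sole peak in C26, 4.7-fold in C26 replicate 1, and it shared that peak with the end of Tmem202. Glb1 had 1 peak, 5.38-fold in CTRL replicate 2. Idua, the iduronidase, had no gene-end peak, but an interior peak was called in C26 replicate 2 at 5.72-fold, 8922 bp from its start, against 3.98- and 7.72-fold in CTRL.

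All 3 MiT/TFE factors were bound in both CTRL libraries and none in C26 replicate 2. Tfeb had 7.03-fold enrichment in C26 replicate 1, against 6.11- and 16.2-fold in CTRL, with a summit at 20 bp in C26, against −20 and 9 bp in CTRL. Tfe3 had 7.46-fold enrichment in C26 replicate 1, against 6.63- and 7.63-fold in CTRL. Mitf had no gene-end peak in C26 and 9.21- and 12.0-fold enrichment in CTRL, at percentiles 64.1 and 75.2, the highest CTRL percentiles of the 10 genes without a C26 peak. Of the 43 genes, Mitf was the only one with the full cAMP response element in a listed promoter, shown here with the palindrome in capitals because cAMP is known to induce Mitf in melanocytes.
Mitf (chr6:97991622-97991645, plus strand): aaaaagcaTGACGTCAagccagca
That element lies at −153 bp from the last of the starts listed for Mitf, at position 97991783. The nearest C26 peaks to this start were at −143181 and −143191 bp, and the nearest CTRL peaks at −184799 and −184867 bp. The peaks of Mitf in CTRL were at its outermost start instead, at −74 and −142 bp.

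Some of these genes also carried peaks inside their span and more than 1000 bp from either end. There were 31 such interior peaks in 12 of the 43 genes, where the background was 16.4% of all genes with an interior peak in any library, and the median span was 23.3 kb for the 43 genes and 17.2 kb for all genes. The 31 peaks were 5 and 7 in C26 replicates 1 and 2, against 9 and 10 in CTRL replicates 1 and 2. Tfeb held 10 of them. At one interior site of Tfeb, with a summit at chr17:47769008 in C26 replicate 1, that library had 4.9-fold enrichment and C26 replicate 2 no peak, against 3.21- and 8.68-fold in CTRL. At another, with a summit at chr17:47748854 in C26 replicate 2, that library had 4.94-fold enrichment and C26 replicate 1 no peak, against 5.0- and 5.68-fold in CTRL. Peaks of all libraries were merged into 17607 regions, of which 66 (0.375%) were called in both C26 and neither CTRL library and 2761 (15.7%) in neither C26 and both CTRL libraries. Of the 2761 regions, 15 lay at or inside the lysosomal genes. Of the 66, 1 lay inside Mitf and 1 inside Ctsb. The number of all 17607 regions that lay at or inside the lysosomal genes is not given, so these counts have no background and are descriptive. The Mitf region, with a summit at chr6:97848602 in C26 replicate 1, had 5.82- and 4.83-fold enrichment in C26, and the Ctsb region had 3.41- and 5.44-fold. Mitf thus had peaks in both C26 libraries inside the gene and peaks in both CTRL libraries at its start. The interior peaks of the C26 lists all had percentiles of 40.2 or lower.

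Lysosomal genes with peaks in more C26 libraries had stronger CTRL peaks, as did genes over the whole annotation. The mean of the 2 CTRL percentiles had a median of 86.6 in the 12 genes bound in all 4 libraries, 63.1 in the 11 genes bound in 1 C26 library and 41.5 in the 10 genes bound in neither C26 library. Over all protein-coding genes the same medians were 87.7, 65.0 and 43.4. The ranges were 66.7 to 96.6, 28.6 to 83.5 and 22.9 to 69.7, so the groups overlapped. When each list was limited to its 4051 strongest peaks, the length of the list of C26 replicate 2, both C26 libraries had a peak at 11 lysosomal genes, beside 2422 of 21887 genes, and both CTRL libraries at 13, beside 3187 genes. Only 1 of the 10 genes without a C26 peak then kept that pattern, Mitf, and so did 233 of 21887 genes. With peaks of −log10 q of at least 5 alone, 6 lysosomal genes had this pattern, beside 1596 genes. The lack of C26 peaks at these genes cannot be told apart from the length of the lists.

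**Figure D2:**
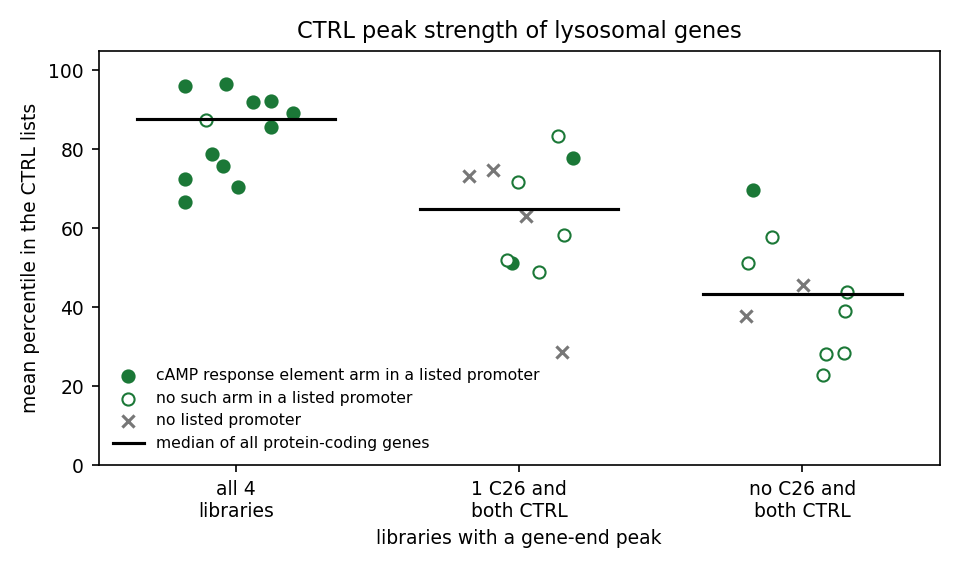
Mean percentile by −log10 q of the strongest gene-end peak in the 2 CTRL lists (vertical axis) for each of the 33 lysosomal genes bound in both, by how many C26 libraries also had a peak. Filled points have the arm TGACG in a listed promoter, open points do not, crosses have no listed promoter, and black lines are the medians of all protein-coding genes, 87.7, 65.0 and 43.4 from left to right. The genes bound in all 4 libraries lie at 66.7 or higher. A listed promoter was not always the site of the peak.

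Most gene-end peaks lay within 1000 bp of a listed transcription start. The rule partly sets this, because it took summits within 1000 bp of a gene end, and a gene normally starts at an end. No share over all genes stands beside the counts that follow, so they are descriptive. For the 35 lysosomal genes with a listed start, 20 of 21 gene-end peaks in C26 replicate 1 and 12 of 12 in C26 replicate 2 had their summit within 1000 bp of one, against 26 of 32 in CTRL replicate 1 and 29 of 36 in CTRL replicate 2. The median distance of these summits from the start, whichever the side, was 51.0 and 65.0 bp in C26 replicates 1 and 2, against 48.5 and 50 bp in CTRL replicates 1 and 2. In the 12 genes bound in all 4 libraries the summits of the libraries spread over 6 to 238 bp, with a median of 90.5 bp. Counting only listed starts, 12 of the 35 genes were bound in all 4 libraries, 6 in 1 C26 library, 8 in neither C26 library, 5 in fewer than both CTRL libraries and 4 in none. Over the 17492 genes with a listed start the shares in the same order were 13.7%, 13.1%, 7.98%, 10.2% and 55.0%. In this count Cln3 moved into the group with no C26 peak and both CTRL peaks, as did Atp6ap1, while Mcoln1 and Ids left it.

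**Figure D3:**
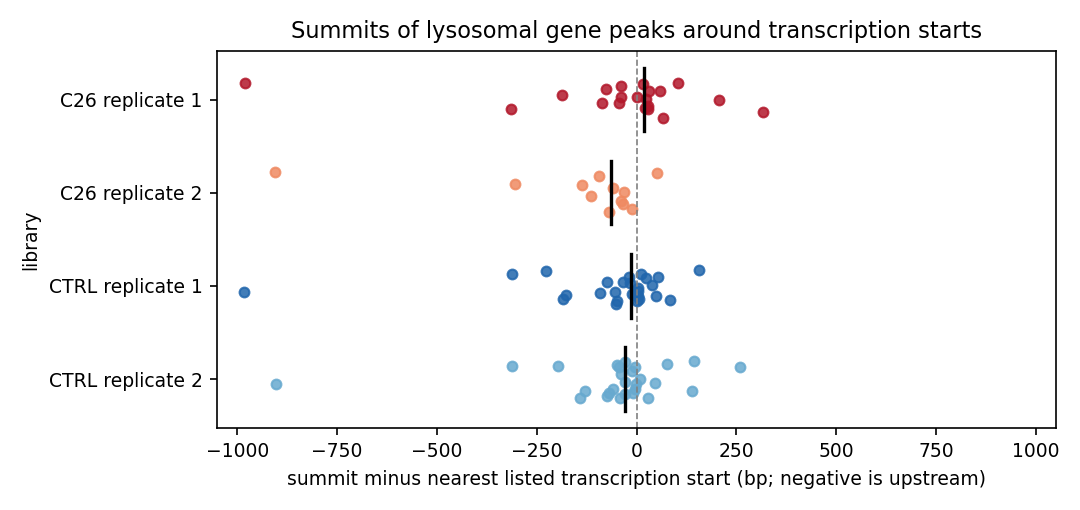
Distance in bp from the summit of the strongest gene-end peak to the nearest listed transcription start (horizontal axis, negative is upstream) for lysosomal genes in each of the 4 libraries (rows, C26 above CTRL). Each point is a gene whose strongest peak lay within 1000 bp of a listed start, points are shifted up and down at random for visibility, and the bar is the median. Most points lie within 250 bp of the start, and the point farthest upstream in each library is Atp6v0a1.

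Several of these peaks belong to more than a single gene. In all, 15 of the 43 genes shared a peak with an end of another protein-coding gene. Atp6v1a shared it with Naa50, Atp6v1d with the translation initiation factor gene Eif2s1, Neu1 with Slc44a4, Tpp1 with Dchs1, Gla with Hnrnph2 and Npc2 with the iron-sulfur cluster gene Isca2. Which gene of such a pair a peak bears on was not tested. Shared peaks were found at 11 of 26 and 5 of 13 bound genes in C26 replicates 1 and 2 (42.3% and 38.5%), against 10 of 35 and 12 of 36 in CTRL replicates 1 and 2 (28.6% and 33.3%). Over all bound genes the shares were 32.7% and 36.4% in C26, against 30.5% and 29.1% in CTRL.

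Promoters of the 35 genes with a listed start were searched on both strands for the arm TGACG, which also lies inside TGACGTC and TGACGTCA. It was found in 14 of them (40.0%) and in 26.2% of all 17492 genes with a listed promoter. By binding, it was found in 11 of 12 genes bound in all 4 libraries, 2 of 7 bound in 1 C26 library, 1 of 8 bound in neither C26 library, 0 of 5 bound in fewer than both CTRL libraries and 0 of 3 unbound genes. Over all genes the shares in these 5 groups were 60.3%, 39.3%, 27.1%, 22.8% and 16.0% in the same order. The 95% Wilson interval for 11 of 12 (91.7%) was 64.6% to 98.5%, and genes of a family are not independent of each other. The genes with the arm outside the group bound in all 4 libraries were Atp6v1f, Gla and Mitf. A listed promoter was not always the site of the peak. The nearest CTRL peaks to the Mitf start with the arm were at −184799 and −184867 bp. The CTRL peaks of Ids lay at −20789 and −20899 bp from its listed start, and the strongest of Mcoln1 lay at its far end. The summits of Atp6v0a1, at −902 to −984 bp, were outside the promoter searched. Over all genes bound in both CTRL libraries, 53.7% of those with the arm and 28.9% of those without it were bound in all 4. When these genes were ranked by CTRL strength into 4 groups of equal size, the shares in the strongest group were 90.9% with the arm and 83.3% without it, and in the next group 46.6% and 45.8%. In the group below it they were 19.4% with and 19.4% without the arm, and in the weakest group 4.37% with and 6.18% without it. The longer TGACGTC, searched for after the sequences were seen, was in 4 of the 35 genes (11.4%) and in 4.35% of all genes. The full TGACGTCA was in 1 of the 35 (2.86%) and in 2.54% of all genes.

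The E-box CACGTG was also in 14 of the 35 promoters (40.0%), against 8.91% of all genes. The longer TCACGTGA, which holds CACGTG, was in 8 of them (22.9%), against 1.41% of all genes. The E-box was found in 5 of 12 genes bound in all 4 libraries, 2 of 7 bound in 1 C26 library and 4 of 8 bound in neither C26 library, with shares of 12.8%, 11.9% and 13.0% over all genes. CCAAT was in 15 of the 35 genes, 42.9% against 42.3% of all genes, and GGGCGG in 26, 74.3% against 49.2%. The following stretches are shown because they carry the longer element in genes of different binding. Atp6v1a was bound in all 4 libraries, Gla in 1 C26 library and Atp6v0e in neither C26 library. Mcoln1 had a peak at the start shown in CTRL replicate 2 alone, and Cln3 had peaks at its inner start in CTRL only. The capitals mark TCACGTGA.
Atp6v1a (chr16:44139376-44139399, minus strand): tttttaaaTCACGTGAtaggctta
Gla (chrX:134601218-134601241, minus strand): gcgattgaTCACGTGAgcatctac
Atp6v0e (chr17:26676390-26676413, plus strand): cgcgccgaTCACGTGAgcctctgt
Mcoln1 (chr8:3500465-3500488, plus strand): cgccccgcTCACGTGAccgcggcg
Cln3 (chr7:126583343-126583366, minus strand): gggtactgTCACGTGAcccccaac
Gaa and Lamp1 are given as examples chosen after their values were seen, and they do not stand for the other genes of their groups. The 150 bases before each start are given, with TGACG and CACGTG in capitals.
Gaa (chr11:119267813-119267962, plus strand): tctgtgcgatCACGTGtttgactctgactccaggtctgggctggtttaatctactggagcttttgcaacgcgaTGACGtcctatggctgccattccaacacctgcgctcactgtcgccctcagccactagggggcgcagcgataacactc
Lamp1 (chr8:13159011-13159160, plus strand): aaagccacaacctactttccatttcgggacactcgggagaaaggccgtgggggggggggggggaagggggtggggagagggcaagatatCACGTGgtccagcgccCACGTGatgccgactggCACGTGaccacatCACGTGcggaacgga
Gaa held 1 arm of the cAMP response element and 1 E-box in this stretch and was bound in all 4 libraries. Lamp1 held 4 E-boxes and no TGACG, and its peak was called in both CTRL libraries only. A match is a description of these letters and does not show which factor binds them.

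**Figure D4:**
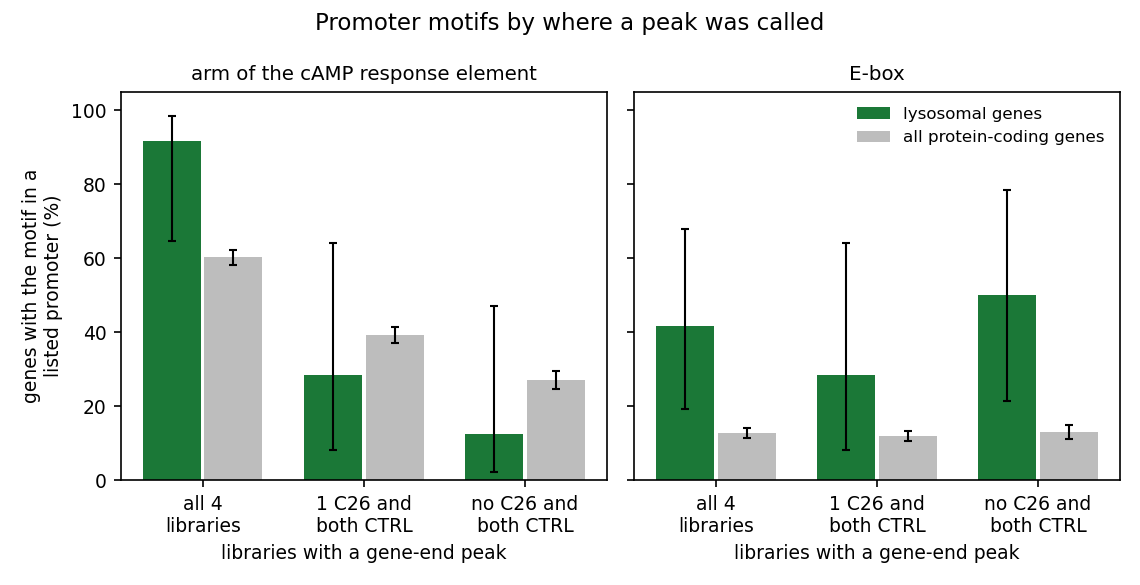
Share of genes (vertical axis, %) with the arm TGACG of the cAMP response element (left) or the E-box CACGTG (right) in a listed promoter, by the libraries in which the gene had a gene-end peak. Green bars are lysosomal genes (12, 7 and 8 genes from left to right), grey bars all protein-coding genes, and lines are 95% Wilson intervals. The arm was found in 91.7% of lysosomal genes bound in all 4 libraries and 12.5% of those bound in no C26 library, while the E-box was found in 41.7% and 4 of 8 of these genes. A listed promoter was not always the site of the peak.

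Other genes of the pathway, in 7 lists that share no gene with the 43, were bound at a smaller share of genes. The 43 genes and these lists were drawn up with earlier results of these data known. Whether the smaller share reflects how genes were placed on the lists was not tested. Of 126 genes matched, 18 had a peak in both C26 libraries and 68 (54.0%) in both CTRL libraries, beside the 13.0% and 32.2% of all genes given above, of which 18 were bound in all 4 libraries, 27 in 1 C26 library and 23 in neither. None of the 126 had peaks in both C26 libraries without peaks in both CTRL libraries. The lists differed in their counts. Among 21 genes of lysosomal nutrient sensing and Tfeb control, 6 had a peak in both C26 libraries and 16 in both CTRL libraries. Rheb, the small GTPase that activates mTORC1, had 18.8- and 16.6-fold enrichment in C26, against 22.7- and 39.2-fold in CTRL, and the Ragulator scaffold gene Lamtor1 had 9.88- and 9.97-fold in C26, against 10.4- and 23.2-fold in CTRL. Among 17 genes for delivery to lysosomes, 4 had a peak in both C26 libraries and 11 in both CTRL libraries. The sorting adaptor gene Gga1 led them, with 29.2- and 19.4-fold in C26, against 32.9- and 55.0-fold in CTRL. Among 29 other lysosomal membrane and transport proteins these counts were 5 in C26 and 16 in CTRL, led by the phosphoinositide phosphatase gene Pip4p1, with 12.9- and 10.2-fold in C26, against 29.5- and 31.0-fold in CTRL.

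Hydrolases outside the 43 genes were bound mainly in CTRL. Of 31 other lysosomal hydrolases, 0 had a peak in both C26 libraries and 16 had one in both CTRL libraries. Of these 16 genes, 12 had no C26 peak, beside 23.0% of the 7037 genes bound in both CTRL libraries. Naaa, an acid amidase, was the strongest of the list in CTRL at 9.98- and 15.3-fold and had no C26 peak. Its mean CTRL percentile was 74.8. The rest of the 12 were weaker in CTRL, with mean percentiles from 13.9 (Fuca1) to 48.4 (Pla2g15). Over all genes with this pattern the median was 43.4. Whether the length of the C26 lists accounts for the missing peaks was not tested. Gm2a, the activator of ganglioside breakdown, had 3.95-fold enrichment in C26 replicate 1 and none in C26 replicate 2, against 6.54- and 13.8-fold in CTRL. Of 9 other cathepsins, 0 had a peak in both C26 libraries and 1 had one in both CTRL libraries, the asparaginyl peptidase gene Lgmn at 5.75- and 8.81-fold. Of 11 genes of V-ATPase assembly and regulation, 2 had a peak in both C26 libraries and 7 in both CTRL libraries, among them Rnasek with 4.64- and 7.13-fold in C26, against 11.4- and 18.5-fold in CTRL. Of 8 V-ATPase genes outside the 43, only Atp6v1g2 was bound in both groups, with 6.17- and 5.34-fold in C26, against 10.8- and 9.79-fold in CTRL, and 6 had no peak in any library.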

How the data were processed

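Phospho-CREB1 ChIP-seq was analysed from 4 deposited peak lists, 1 per library, called by the authors against a numbered input of the same group at a q threshold of 0.05 per the labels, so replicates were not pooled. The submitters' processing notes name MACS2 2.1.4, SAMtools 1.6, Bowtie2 2.3.5.1, FastQC 0.11.2 and Picard and give mm10 (GRCm38) as the build. The labels abbreviate a further filter whose meaning they do not give. Each deposited list gives a fold enrichment over input (a ratio), a −log10 q-value and the offset of the summit for every peak, and these are the authors' own values per peak. They rank and filter peaks inside their own list and were not compared between lists. Read counts were not analysed here, so depth is unknown.

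A peak was assigned to a gene if its summit was at most 1000 bp from an end of the gene's span in the RefSeq annotation of GRCm38.p6, and the peak of highest −log10 q stood for the gene. Strand, starts and promoter sequences came from the RefSeq promoter table of the same build, which matched 35 of the 43 genes by symbol. Atp6v0a2, Atp6v1b2, Atp6v1c1, Atp6v1g1, Atp6v1h, Npc1, Ctsb and Galns were not matched. In 1843 pairs of overlapping promoters on opposite strands, all 1843 matched in sequence. Reading the summit offset 1 bp differently changed 0 of the 43 genes. Analyses used Python 3.11.15, pandas 2.3.3, numpy 2.4.6, SciPy 1.17.1 and matplotlib 3.10.9, and the counting steps were tested on simulated data.

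The number of peaks was compared by a two-sided exact permutation test. Counts of genes carry no test and are set beside the same count over all protein-coding genes, with 95% Wilson intervals that cover counting error only. Genes were named by rule: the 10 with the highest mean percentile among those bound in all 4 libraries, every gene bound in neither C26 and both CTRL libraries or in C26 without both CTRL libraries, the MiT/TFE factors, the 5 strongest in CTRL of those bound in 1 C26 library, and the unbound genes. Remaining members were added for completeness. In the other lists, genes were taken from the 3 strongest in CTRL. The 43 genes and the other lists were drawn up with earlier results of these data known, although no measured value enters the rule. Alternatives were windows of 500 and 2000 bp, a minimum −log10 q of 5, lists limited to 4051 peaks, overlap in place of summits, the nearest gene end only, percentiles by fold and leaving out each library. Counting only listed starts and pairing libraries by replicate number were added after seeing the data.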

Additional observations from a re-analysis of the deposited data

How the results depend on the processing

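The count of lysosomal genes with a peak in both C26 libraries (13) was 11 to 13 under the 6 other ways of assigning or filtering peaks, and 13 to 26 when a C26 library was left out, 26 being the value without C26 replicate 2. The count for both CTRL libraries (33) was 13 with lists limited to their 4051 strongest peaks, 27 to 34 under the other 5 ways and 35 to 36 when a CTRL library was left out. The count with peaks in neither C26 and both CTRL libraries (10) was 6 with −log10 q of at least 5, 1 with the limited lists, 9 to 10 under the other 4 ways, and 10 to 21 when a library was left out, 21 being the value without C26 replicate 1. The count for all 4 libraries (12) was 8 to 12 under the 6 ways and 12 to 23 when a library was left out, 23 being the value without C26 replicate 2. The counts move in this way with fewer peaks or fewer libraries required. The ratio of mean peak number, C26 over CTRL, was 0.447 and with −log10 q of at least 5 it was 0.444. The median CTRL strength of the 33 genes was 67.5 by −log10 q and 68.2 by fold. Within the 35 genes with a listed start, the 4 counts in the same order were 12, 27, 8 and 12 by gene ends. Counting only listed starts, they were 12, 26, 8 and 12, although some genes changed group. With same-numbered libraries as a replicate block, the C26 over CTRL ratio of peak number was 0.691 for number 1 and 0.271 for number 2, with a geometric mean of 0.432 and a two-sided exact sign-flip permutation p of 0.5, the smallest that 2 pairs allow. The labels do not say that the numbers pair animals or days, and the gene counts come from no test and so have no blocked value. Unknown depth limits every absence of a peak, and C26 replicate 2, with 4051 peaks, limits the C26 counts most.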
